A study of Mus musculus with 3 samples.

Results

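The genes described here encode the laminin, collagen IV and linker proteins of the basement membrane, together with a matrix glycoprotein and a collagen chaperone that accompany them. They are the laminin chains Lama1, Lamb1 and Lamc1, the collagen IV chains Col4a1 and Col4a2, the nidogens Nid1 and Nid2, the perlecan gene Hspg2, Sparc and Serpinh1. All probes carrying 1 of these symbols were taken, which gave 11 of the 25697 probes on the array and 10 of 17836 genes; Lamb1 stood under its older symbol Lamb1-1, and Sparc had 2 probes. Every probe was detected on all 6 arrays, so none of the 10 genes was lost to the filter on dim probes, and all 10 were among the 10222 genes tested.

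The measurements came from mouse embryonic stem cells, which are pluripotent cells kept in culture, of a 129 background with a Sox17-GFP reporter, a green fluorescent protein that marks expression of the endoderm regulator Sox17. Total RNA was hybridised to 1-colour Illumina bead arrays in 3 groups of 2 arrays. The Activin group held Sox17-GFP(+) cells taken at day 7 of differentiation with Activin A (recombinant human protein, 50 ng/ml), and the Nodal group held Sox17-GFP(+) cells taken at day 7 with Nodal (recombinant mouse protein, 1000 ng/ml). Both ligands signal through activin-type receptors, and both groups shared a medium with reduced serum; the protocol gives 6 to 8 days for this step. The undifferentiated group held the same Sox17-GFP line, maintained with LIF and serum on gelatin with mouse embryonic fibroblasts (MEFs) as feeders. The samples analysed here include no cells cultured for 7 days without ligand, so the ligand, the medium, the days in culture, the feeders and the choice of GFP-positive cells cannot be told apart in any comparison with undifferentiated cells. Nothing in the labels says how GFP-positive cells were obtained or whether paired arrays represent separate cultures, and p-values therefore measure only the spread between these arrays, which may be technical. In bulk RNA, fewer cells of a type and less RNA per cell cannot be told apart.

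A basement membrane is a thin sheet of extracellular matrix that underlies epithelia. Laminin, a trimer of an alpha, a beta and a gamma chain, binds cell-surface receptors and polymerises first. Collagen IV, a trimer built mainly of the products of Col4a1 and Col4a2, forms a second, crosslinked network, and nidogens and perlecan join the networks. In the mouse embryo the parietal endoderm lays down a thick sheet of this kind, Reichert's membrane, and epiblast and visceral endoderm rest on either side of another.

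The collagen IV genes lie head to head on chromosome 8 and are transcribed in opposite directions from a common promoter. Their shared control region is shown here, and its part in how both chains moved was not tested. RefSeq promoter windows (GRCm38.p6; 250 bases before to 50 after the annotated start) were found for 7 of the 10 genes. The windows of Col4a1 (chr8:11312777-11313076, minus strand) and Col4a2 (chr8:11312555-11312854, plus strand) overlap by 78 bases at chr8:11312777-11312854. Their annotated starts, 11312826 for Col4a1 and 11312805 for Col4a2, are 21 bases apart, so the annotated transcripts overlap at their starts. Of the 10 genes described, Lamb1 was the laminin gene with the largest change and Nid1 the gene that fell most. Their windows (chr12:31265043-31265342 for Lamb1 and chr13:13437352-13437651 for Nid1, both plus strand) are shown as well. Capitals mark matches on either strand to 2 motifs, the CCAAT box (CCAAT, or ATTGG on the other strand) and the GC box (GGGCGG, or CCGCCC), which share no base in these windows.
Col4a1: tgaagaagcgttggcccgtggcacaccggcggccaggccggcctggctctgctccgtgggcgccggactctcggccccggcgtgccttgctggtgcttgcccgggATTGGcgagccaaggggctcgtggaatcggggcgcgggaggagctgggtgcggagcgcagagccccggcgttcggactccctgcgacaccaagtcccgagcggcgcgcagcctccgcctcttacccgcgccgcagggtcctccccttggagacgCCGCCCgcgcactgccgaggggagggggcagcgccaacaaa
Col4a2: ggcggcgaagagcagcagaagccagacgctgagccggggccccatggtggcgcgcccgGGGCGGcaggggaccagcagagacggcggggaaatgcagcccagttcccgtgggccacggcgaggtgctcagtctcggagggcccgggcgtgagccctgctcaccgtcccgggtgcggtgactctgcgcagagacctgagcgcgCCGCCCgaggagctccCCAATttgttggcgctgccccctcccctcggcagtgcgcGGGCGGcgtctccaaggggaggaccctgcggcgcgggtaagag
Lamb1: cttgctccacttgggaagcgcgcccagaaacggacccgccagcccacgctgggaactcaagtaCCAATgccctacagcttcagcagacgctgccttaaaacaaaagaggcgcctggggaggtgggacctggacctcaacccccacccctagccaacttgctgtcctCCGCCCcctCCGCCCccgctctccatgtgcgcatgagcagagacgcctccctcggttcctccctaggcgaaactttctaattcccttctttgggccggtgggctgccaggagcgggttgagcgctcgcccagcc
Nid1: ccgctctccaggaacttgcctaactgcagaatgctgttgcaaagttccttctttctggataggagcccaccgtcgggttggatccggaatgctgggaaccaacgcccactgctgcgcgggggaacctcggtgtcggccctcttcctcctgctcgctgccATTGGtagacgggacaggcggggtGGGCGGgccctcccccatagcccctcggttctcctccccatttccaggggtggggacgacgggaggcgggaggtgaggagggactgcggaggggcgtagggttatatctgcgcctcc
A CCAAT box was found in 4 of the 7 windows and in 37.4% of 32851 RefSeq promoter windows of the same length. A GC box was found in 6 of the 7 windows and in 35.7% of all windows. The 4 windows shown hold 1 CCAAT box each, and Nid1, which fell, holds both motifs as do Lamb1, Col4a1 and Col4a2, which rose. The 78 bases shared by the Col4a1 and Col4a2 windows hold 1 GC box and 0 complete CCAAT boxes. The Col4a1 window ends on the last base of the CCAAT box in the Col4a2 window, so that count depends on the window length. The Hspg2 window holds 5 GC boxes and no CCAAT box, the Serpinh1 window 1 GC box and no CCAAT box, and the Sparc window neither. A match describes letters in a window and does not show that a factor binds there.

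Shares of detected probes and median signals differed little between groups, whereas upper quartiles of raw signal were lower in undifferentiated cells. Between 49.34% and 50.56% of probes were detected per array, and median raw signals lay between 55.16 and 60.85. The upper quartiles were 202.8 and 185 on undifferentiated arrays and 228.6 to 251.2 on treated arrays. Sox17, the reporter's gene, had log2 levels of 11.79 to 11.90 on the 4 treated arrays against 6.45 and 6.57 on the undifferentiated arrays, the direction the sample titles give. The series design text calls the first sample SOX17-GFP (+), whereas its title and these levels separate an undifferentiated group. All 10 definitive endoderm markers measured (Sox17, Foxa2, Gsc, Lhx1 and others) rose in both treated groups, by a median of 5.50 with Activin and 5.15 with Nodal on the log2 scale (5.25 and 4.86 with genes undetected in undifferentiated cells at their lower bound), and all 9 pluripotency markers tested fell (median change -4.82 and -4.71). By the test given below, 36.5% of all genes rose and 37.2% fell with Activin, and 36.8% and 37.4% with Nodal. Levels below are background-corrected, quantile-normalized log2 values, in which a step of 1 is a doubling, and levels of different probes are not compared as levels, since probes differ in brightness. Genes were called where limma's moderated two-sided test gave an adjusted p below 0.05, after Benjamini-Hochberg adjustment over all 10222 genes.

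Laminin chains did not move together. Lamb1 and Lamc1, the beta and gamma chains, rose in both treated groups, whereas Lama1, the alpha chain, fell with Activin and did not pass the test with Nodal. For Lama1 the log2 levels were 9.70 and 10.37 with Activin, 10.93 and 10.92 with Nodal, and 10.86 and 10.73 in undifferentiated cells. The Activin arrays were thus below all others and 0.669 apart, while the Nodal arrays lay just above the undifferentiated ones. The change of Lama1 was -0.76 with Activin (SE 0.179, adjusted p = 0.00367, 1.69-fold lower) and 0.13 with Nodal (95% confidence interval -0.27 to 0.53, adjusted p = 0.533). Its size with Activin rested on which Activin array was kept, at -0.42 without Activin replicate 1 and -1.10 without Activin replicate 2, and it passed the test in either case.

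For Lamb1 the log2 levels were 8.47 and 8.29 with Activin, 8.84 and 8.90 with Nodal, and 6.82 and 6.76 in undifferentiated cells. No array of 1 group reached the range of another, in the order undifferentiated, Activin, Nodal. Lamb1 rose by 1.59 with Activin (SE 0.0929, adjusted p = 2.35e-07, 3.01-fold) and by 2.08 with Nodal (SE 0.0929, adjusted p = 3.46e-08, 4.24-fold). The log2 levels of Lamc1 were 11.26 and 11.41 with Activin, 11.59 and 11.40 with Nodal, and 10.46 and 10.33 in undifferentiated cells, so the treated arrays overlapped each other and stood above both undifferentiated arrays. Lamc1 rose by 0.94 with Activin (SE 0.103, adjusted p = 2.14e-05, 1.92-fold) and by 1.10 with Nodal (SE 0.103, adjusted p = 6.85e-06, 2.15-fold).

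The collagen IV chains rose in both treated groups, by 3.23-fold to 4.72-fold. For Col4a1 the log2 levels were 11.18 and 11.48 with Activin, 11.81 and 11.77 with Nodal, and 9.54 and 9.56 in undifferentiated cells. Before normalization its raw signals were 2546 and 2716 with Activin, 3779 and 3458 with Nodal, and 729.7 and 663.1 in undifferentiated cells, in the same order of groups. Col4a1 rose by 1.78 with Activin (SE 0.108, adjusted p = 3.14e-07, 3.43-fold) and by 2.24 with Nodal (SE 0.108, adjusted p = 5.98e-08, 4.72-fold). For Col4a2 the log2 levels were 10.06 and 10.51 with Activin, 10.80 and 10.77 with Nodal, and 8.62 and 8.57 in undifferentiated cells. Neither chain had overlapping groups, and the Activin arrays of Col4a2 stood 0.448 apart, more than the 95th percentile of this distance over all genes (0.353). Col4a2 rose by 1.69 with Activin (SE 0.133, adjusted p = 2.08e-06, 3.23-fold) and by 2.19 with Nodal (SE 0.133, adjusted p = 3.13e-07, 4.57-fold).

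**Figure D1:**
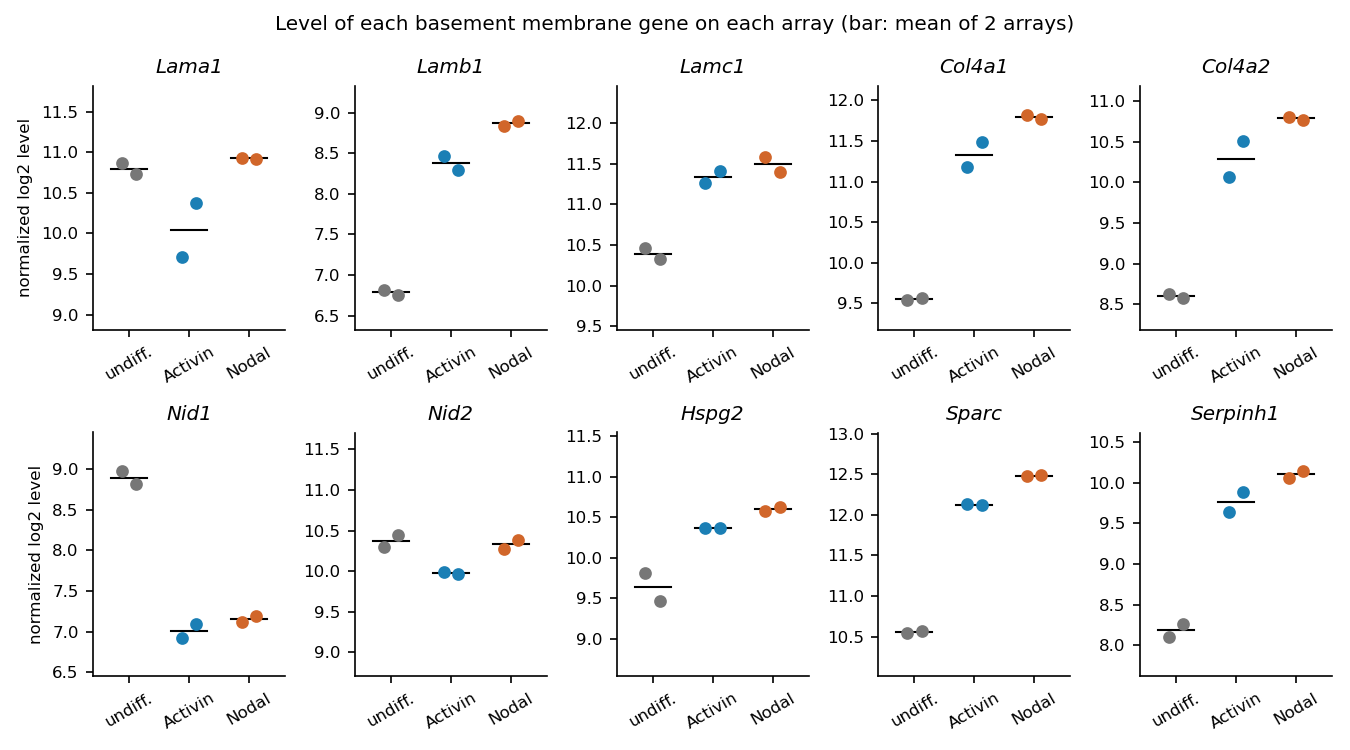
Normalized log2 level of each of the 10 genes on each of the 6 arrays (y axis, log2 units), with 1 panel per gene and the 3 groups along the x axis; points are arrays and bars the group means. Lamb1, Lamc1, Col4a1, Col4a2, Hspg2, Sparc and Serpinh1 sit higher on all 4 treated arrays than on either undifferentiated array, Nid1 sits lower on all 4, and the Activin arrays of Lama1 are 0.669 apart.

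The nidogens, which bind the laminin gamma chain and collagen IV, differed from each other. Nid1 fell in both treated groups, and Nid2 fell slightly with Activin and did not pass with Nodal. For Nid1 the log2 levels were 6.93 and 7.10 with Activin, 7.12 and 7.20 with Nodal, and 8.98 and 8.82 in undifferentiated cells, so that all treated arrays were below both undifferentiated arrays. Its change was -1.88 with Activin (SE 0.0998, adjusted p = 1.18e-07, 3.69-fold lower) and -1.74 with Nodal (SE 0.0998, adjusted p = 2.06e-07, 3.34-fold lower). For Nid2 the log2 levels were 9.99 and 9.97 with Activin, 10.28 and 10.39 with Nodal, and 10.30 and 10.45 in undifferentiated cells. Here the Nodal and undifferentiated arrays overlapped and the Activin arrays were lowest. The change of Nid2 was -0.39 with Activin (SE 0.0921, adjusted p = 0.0035, 1.31-fold lower) and -0.04 with Nodal (95% confidence interval -0.25 to 0.17, adjusted p = 0.726).

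Hspg2, which encodes the large heparan sulfate proteoglycan perlecan, also rose in both treated groups. Its log2 levels were 10.37 and 10.37 with Activin, 10.58 and 10.62 with Nodal, and 9.81 and 9.47 in undifferentiated cells, where the 2 arrays were 0.348 apart and both below every treated array. The change was 0.73 with Activin (SE 0.115, adjusted p = 0.000277, 1.66-fold) and 0.96 with Nodal (SE 0.115, adjusted p = 4.03e-05, 1.95-fold).

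Sparc, a secreted glycoprotein that binds collagen IV, and Serpinh1, the collagen-specific chaperone of the endoplasmic reticulum also known as HSP47, rose in both groups. For the brighter Sparc probe the log2 levels were 12.13 and 12.12 with Activin, 12.48 and 12.49 with Nodal, and 10.54 and 10.58 in undifferentiated cells. On the other Sparc probe they were 11.51 and 11.69 with Activin, 11.67 and 11.72 with Nodal, and 10.29 and 10.24 in undifferentiated cells. Both probes put every treated array above the undifferentiated arrays, and the treated groups were apart on the brighter probe and overlapped on the other. The brighter probe rose by 1.57 with Activin (SE 0.0815, adjusted p = 1.02e-07, 2.97-fold) and by 1.93 with Nodal (SE 0.0815, adjusted p = 2.41e-08, 3.80-fold), and the other by 1.34 (SE 0.0959, adjusted p = 1.19e-06) and 1.43 (SE 0.0959, adjusted p = 7.16e-07). For Serpinh1 the log2 levels were 9.64 and 9.89 with Activin, 10.06 and 10.14 with Nodal, and 8.10 and 8.27 in undifferentiated cells, again with no overlap between groups. Serpinh1 rose by 1.58 with Activin (SE 0.109, adjusted p = 7.79e-07, 3.00-fold) and by 1.92 with Nodal (SE 0.109, adjusted p = 1.89e-07, 3.79-fold).

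Most of the 10222 genes tested passed between treated and undifferentiated cells, and the counts over the 10 genes have to be read against that. With Activin, 7 of the 10 rose and 3 fell, where 73.7% of all genes tested passed, 36.5% as higher and 37.2% as lower. With Nodal, 7 rose, 1 fell and 2 did not pass, where 74.3% of all genes passed, 36.8% as higher and 37.4% as lower. Passing the test was therefore common among tested genes, and changes of 2-fold or more were less so. With Activin 6 of the 10 genes passed and changed at least 2-fold, where 26.8% of all genes did, and with Nodal 7, where 27.6% did. Lamb1, Col4a1, Col4a2, Sparc and Serpinh1 rose at least 2-fold with Activin, where 14.3% of all genes did, and Nid1 fell at least 2-fold, where 12.6% did. With Nodal Lamc1 joined these 5 genes, where 14.7% of all genes rose at least 2-fold, and Nid1 again fell at least 2-fold, where 12.9% did. The median change of the 10 genes was 1.26 with Activin and 1.51 with Nodal, beside medians of -0.02 and -0.01 over all genes tested. Both arrays of the Activin group lay above both undifferentiated arrays in 7 of the 10 genes and below them in 3, where 41.9% and 43.5% of all genes did so. For Nodal 8 lay above and 1 below, where 42.8% and 43.9% of all genes did so. The comparisons share the undifferentiated arrays, so a deviation of those arrays enters both.

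**Figure D2:**
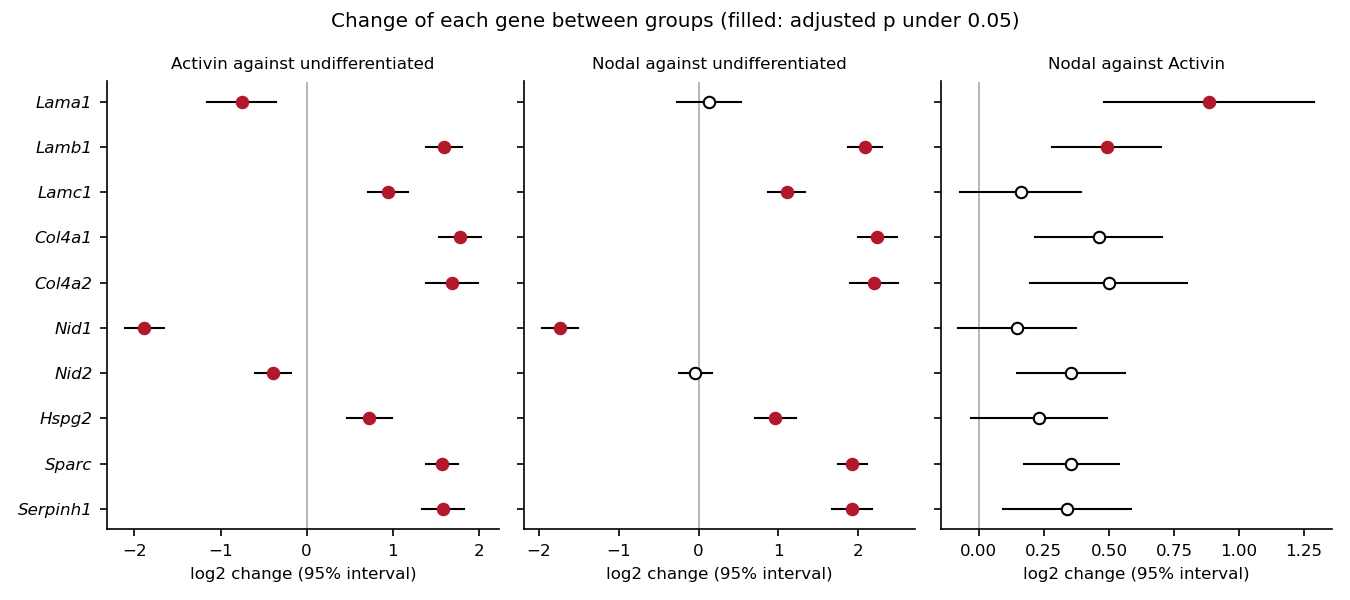
Log2 change of each of the 10 genes in the 3 comparisons (x axis, log2 units), with points as estimates from 2 arrays per group, bars as 95% confidence intervals and filled points for genes past the test. Against undifferentiated cells the estimates run from -1.88 for Nid1 with Activin to 2.24 for Col4a1 with Nodal, and in the Nodal against Activin panel all 10 estimates are above 0 with Lama1 and Lamb1 filled.

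The comparison of Nodal with Activin asks whether the ligands, each at its own dose, left different levels of these genes in Sox17-GFP(+) cells. The doses were 50 ng/ml of Activin A and 1000 ng/ml of Nodal, and no common dose was among the samples. Lama1 and Lamb1 were higher with Nodal, and the other 8 genes did not pass; 2.88% of all genes passed, 1.52% as higher and 1.36% as lower. Lama1 was higher by 0.88 (SE 0.179, 95% confidence interval 0.48 to 1.29, adjusted p = 0.0351, 1.85-fold), a change larger than that of 99.7% of genes tested. Lamb1 was higher by 0.49 (SE 0.0929, 95% confidence interval 0.28 to 0.70, adjusted p = 0.0273, 1.41-fold). Neither call held under every setting. For Lama1 the adjusted p was 0.0508 without Activin replicate 1, where the change was 0.55, 0.154 and 0.142 without Nodal replicate 1 or 2, and 0.164 with no filter on dim probes, in a range of 0.00114 to 0.164 over 23 alternatives. For Lamb1 it was 0.154 without Activin replicate 2, 0.122 and 0.162 without Nodal replicate 1 or 2, and 0.0619 with no filter, in a range of 0.00354 to 0.162.

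Among the 8 genes that did not pass, the collagen IV chains, Sparc and Nid2 had intervals above 0 and adjusted p-values just over the threshold. The difference was 0.46 for Col4a1 (95% confidence interval 0.22 to 0.70, adjusted p = 0.0602) and 0.50 for Col4a2 (95% confidence interval 0.20 to 0.80, adjusted p = 0.0931). It was 0.36 for the brighter Sparc probe (95% confidence interval 0.17 to 0.54, adjusted p = 0.0552) but 0.10 for the other (SE 0.0959, adjusted p = 0.733). For Nid2 it was 0.35 (95% confidence interval 0.15 to 0.56, adjusted p = 0.085). Sparc and Nid2 had 1.28-fold higher fitted levels with Nodal, and the collagen chains 1.38-fold and 1.41-fold. Col4a1 and Col4a2 passed without Activin replicate 2, at 0.61 (adjusted p = 0.0451) and 0.73 (adjusted p = 0.0265), and their adjusted p-values ran from 0.00572 to 0.28 and from 0.0137 to 0.322 over the 23 alternatives. The other values were 0.34 for Serpinh1 (95% confidence interval 0.09 to 0.58, adjusted p = 0.166), 0.23 for Hspg2 (-0.03 to 0.49, 0.386), 0.16 for Lamc1 (-0.07 to 0.39, 0.525) and 0.15 for Nid1 (-0.08 to 0.37, 0.555).

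In 9 of the 10 genes both Nodal arrays were above both Activin arrays, the exception being Lamc1, where 23.1% of all genes had this order. All 10 estimates were above 0, with a median of 0.35 beside 0.00 over all genes. At an unadjusted p under 0.05, 7 of the 10 were higher and 0 lower by limma, where 8.16% and 7.38% of all genes were, and 0 of the 10 were lower after adjustment. No member differed 2-fold or more and passed, where 0.245% of all genes did, 0.166% as higher and 0.0783% as lower. The Activin arrays carried more of the spread than the Nodal arrays: Lama1 and Col4a2 were above the 95th percentile of the distance between the 2 Activin arrays (0.353), and 0 of 10 were above that of the Nodal arrays (0.303).

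**Figure D3:**
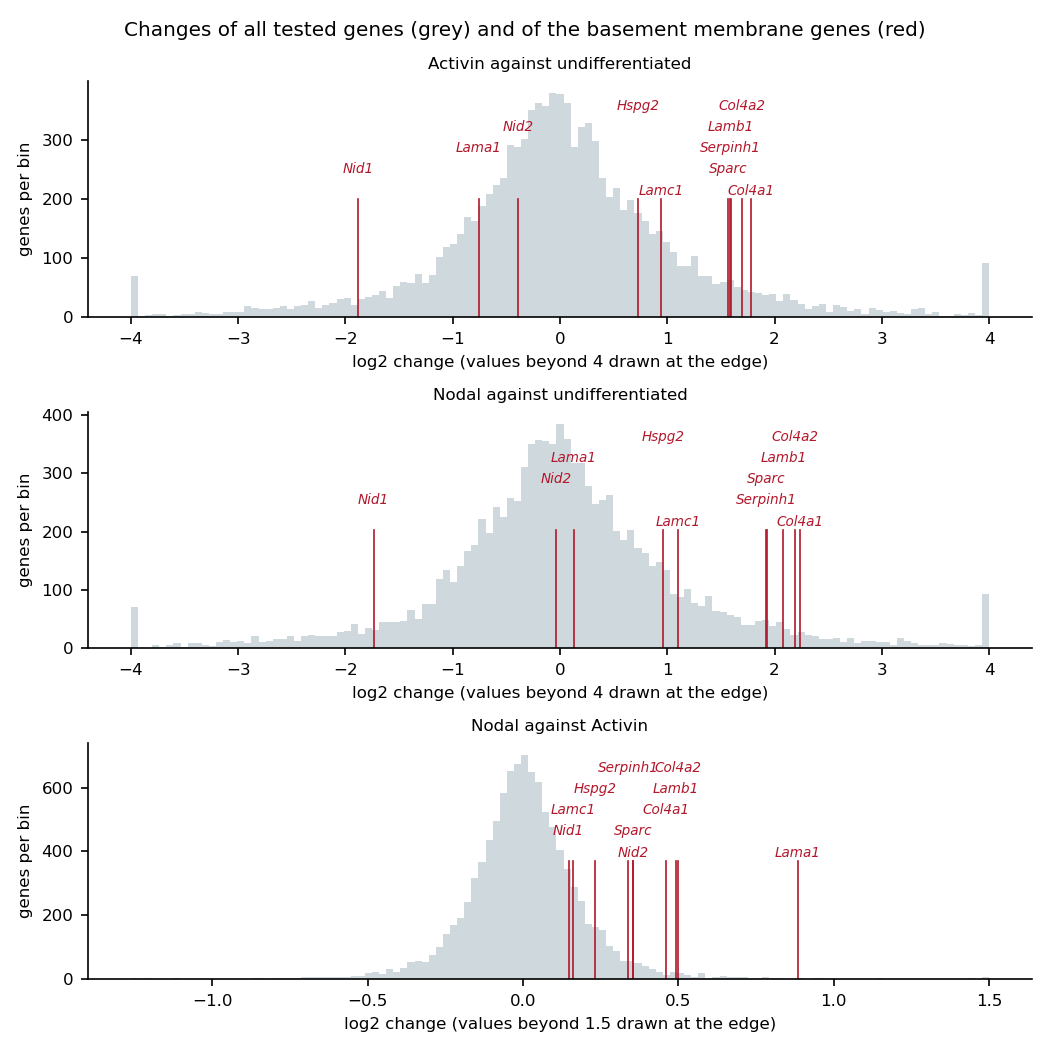
Log2 change (x axis) of all 10222 genes tested, as grey histograms of genes per bin (y axis), with 1 panel per comparison; red lines mark the 10 basement membrane genes, and changes beyond the axis are drawn at its edge. In the lower panel all 10 lines lie above 0 and Lama1 stands farthest out at 0.88, and in the upper panels Nid1 lies on the left at -1.88 and -1.74.

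How the chains of a trimer moved relative to each other was read within each array as the difference between the log2 levels of 2 probes. Only the shift of such a difference between groups has meaning, since probes differ in brightness. For Col4a1 minus Col4a2 the difference was 1.12 and 0.97 with Activin, 1.01 and 1.00 with Nodal, and 0.92 and 0.99 in undifferentiated cells, a shift of 0.07 between the 4 treated and the 2 undifferentiated arrays, whose ranges overlapped. The collagen pair thus stayed between 0.92 and 1.12 on every array, while each chain rose by 1.69 to 2.24 against undifferentiated cells. For Lamb1 minus Lama1 it was -1.24 and -2.08 with Activin, -2.09 and -2.02 with Nodal, and -4.05 and -3.97 in undifferentiated cells, a shift of 2.15. Lamc1 minus Lama1 shifted by 1.34, and Lamb1 minus Lamc1 by 0.82, so the 3 laminin probes shifted unequally. Nid2 minus Nid1 was 3.06 and 2.87 with Activin, 3.16 and 3.19 with Nodal, and 1.32 and 1.63 in undifferentiated cells, a shift of 1.60. For each of the 4 pairs other than the collagen pair the treated and undifferentiated arrays did not overlap, which gives an exact two-sided permutation p of 0.0667 (0.0833 adjusted over the 5 pairs). That is the smallest p that 4 against 2 arrays allow, so this design cannot reach 0.05.

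**Figure D4:**
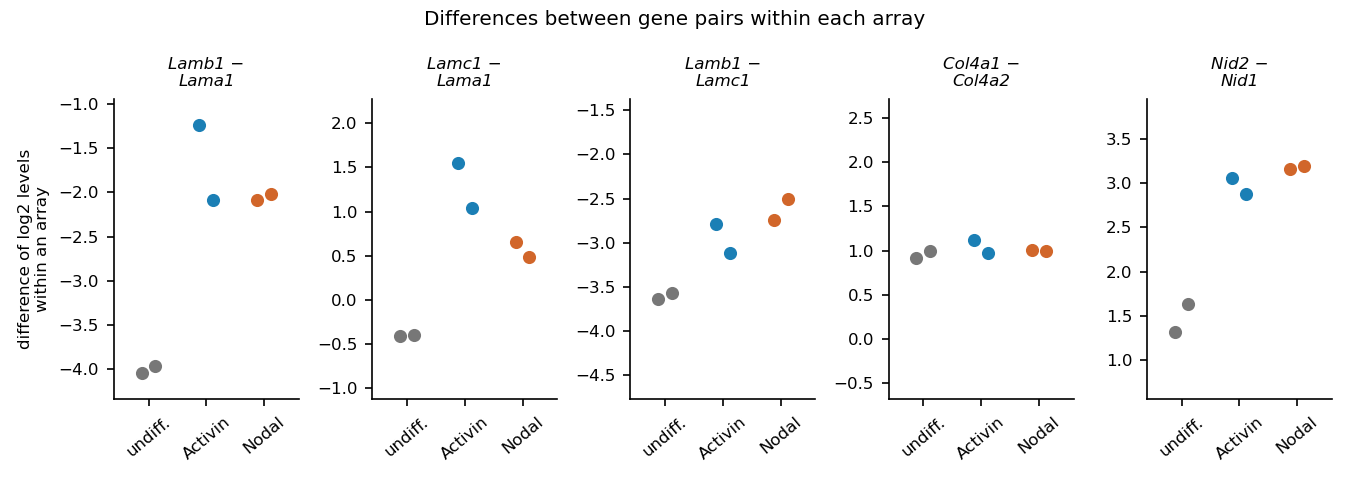
Difference between the log2 levels of 2 probes within each of the 6 arrays (y axis, log2 units), with 1 panel per pair of genes and 1 point per array. Col4a1 minus Col4a2 stays between 0.92 and 1.12 on all arrays, whereas the differences of the laminin and nidogen pairs are higher on the 4 treated arrays than on the 2 undifferentiated arrays.

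Several other chains of the same families were too dim to be tested. Of 10 other laminin and collagen IV chains on the array 5 were tested, and 3 of these rose in each treated group, where 36.5% of all genes rose with Activin and 36.8% with Nodal. Lamb3, an epithelial beta chain, was detected on no undifferentiated array and was at least 7.13-fold higher with Activin (adjusted p = 1.41e-09) and at least 7.11-fold higher with Nodal (adjusted p = 1.42e-09). Col4a5, an alternative collagen IV chain, was also below detection on both undifferentiated arrays and was at least 2.80-fold (adjusted p = 3.32e-07) and 3.52-fold higher (adjusted p = 1.02e-07). Such bounds set the mean of the detected group against the lowest signal detected on each array of the other.

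Other basement membrane components moved in both directions, 3 up and 4 down of 8 tested in each treated group. Of all genes, 36.5% rose and 37.2% fell with Activin, and 36.8% and 37.4% with Nodal. The median changes of the 8 were -0.15 with Activin and -0.09 with Nodal. Agrn, which encodes the heparan sulfate proteoglycan agrin, rose by 1.57 with Activin (adjusted p = 2.87e-07) and 1.64 with Nodal (adjusted p = 2.14e-07). Col7a1, the anchoring fibril collagen, rose by 2.04 (adjusted p = 5.72e-07) and 1.57 (adjusted p = 3.82e-06). Fbln2, a fibulin that binds nidogen and laminin, fell, with changes of -2.30 (adjusted p = 1.43e-08) and -2.41 (adjusted p = 9.86e-09), and less on a second probe, at -0.999 and -1.04. Smoc1, a Sparc-related calcium-binding protein, fell by 1.18 in both (adjusted p = 9.05e-07 and 8.49e-07).

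Among receptors for laminin and collagen, 2 of 9 tested rose and 4 fell with Activin, where 36.5% of all genes rose and 37.2% fell. With Nodal 1 rose and 5 fell, where 36.8% of all genes rose and 37.4% fell. The median changes were -0.19 and -0.29. The integrin laminin-receptor chains Itga6, Itga3 and Itgb4 fell in both groups (adjusted p between 2.21e-06 and 0.00012). The change of Itga6 was -1.39 with Activin and -1.21 with Nodal, that of Itga3 -1.14 and -0.64, and that of Itgb4 -0.83 and -0.91, or -0.38 and -0.47 on its other probe. Itgb1, a beta chain that pairs with both of these alpha chains, named after its values were seen, stood at -0.19 with Activin (adjusted p = 0.151) and fell by 0.29 with Nodal (adjusted p = 0.0396). Itga3 was higher with Nodal than with Activin by 0.49 (SE 0.0901, adjusted p = 0.0241). Ddr1, a collagen-binding receptor tyrosine kinase, rose by 2.02 and 2.08 on its brightest probe (adjusted p = 5.82e-08 and 4.63e-08), but a second probe stood at 0.11 and -0.02 and did not pass (adjusted p = 0.441 and 0.908).

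The wider set of genes for collagen folding, modification and export, to which the role of Serpinh1 belongs, moved both ways. Of 16 tested, 6 rose and 6 fell with Activin, where 36.5% of all genes rose and 37.2% fell. With Nodal 4 rose and 5 fell, where 36.8% of all genes rose and 37.4% fell. The median changes of the 16 were -0.15 and -0.14. P3h2, a prolyl hydroxylase that acts on collagen IV, was detected on neither undifferentiated array and was at least 3.25-fold higher with Activin (adjusted p = 9.02e-08) and 3.68-fold higher with Nodal (adjusted p = 4.65e-08). P3h1 and Crtap, partners in another prolyl hydroxylase complex, fell, with changes of -0.77 and -1.15 with Activin and -0.83 and -0.92 with Nodal. Sec24d, a coat protein of the vesicles that carry procollagen, fell too, at -0.84 and -0.71 (adjusted p for the 3 genes between 1.72e-06 and 0.000122).

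Crosslinking enzymes also split. Pxdn, the peroxidase that forms the sulfilimine bonds of collagen IV, rose by 1.48 in both groups (adjusted p = 7.88e-07 with Activin and 8.18e-07 with Nodal). Both Lox and Loxl1, which are lysyl oxidases, fell. Lox was detected on no treated array and was at least 22-fold lower with Activin (adjusted p = 1.39e-09) and 22.3-fold lower with Nodal (adjusted p = 1.05e-09), and Loxl1 changed by -2.32 and -2.30 (adjusted p = 1.70e-08 and 1.73e-08). Loxl2 fell by 0.44 with Activin (adjusted p = 0.00142) and stood at -0.06 with Nodal (adjusted p = 0.549). Over the 5 tested, 1 rose and 3 fell with Activin, where 36.5% of all genes rose and 37.2% fell. With Nodal 1 rose and 2 fell, where 36.8% of all genes rose and 37.4% fell. The median changes of the 5 were -0.44 and -0.06.

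Among 11 matrix proteases and inhibitors tested, 7 rose and 3 fell in each treated group. Of all genes, 36.5% rose and 37.2% fell with Activin, and 36.8% and 37.4% with Nodal. The median changes of the 11 were 0.59 with Activin and 0.30 with Nodal. Bmp1, a protease that trims procollagens and laminin chains, rose by 2.14 with Activin and 1.83 with Nodal (adjusted p = 5.51e-08 and 1.57e-07). Mmp15, a membrane-bound metalloproteinase, was likewise below detection in undifferentiated cells and at least 5.58-fold and 5.38-fold higher (adjusted p = 6.55e-09 and 7.05e-09). The metalloproteinase inhibitor Timp1 fell, with changes of -2.94 and -2.82 (adjusted p = 4.97e-09 and 6.41e-09), as did the serine protease Htra1, with -2.31 and -1.85 (adjusted p = 1.07e-07 and 5.21e-07). The only member of this list to differ between the ligands was Mmp9, a gelatinase named after its values were seen, which was lower with Nodal by -0.86 (SE 0.0979, adjusted p = 0.00286).

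**Figure D5:**
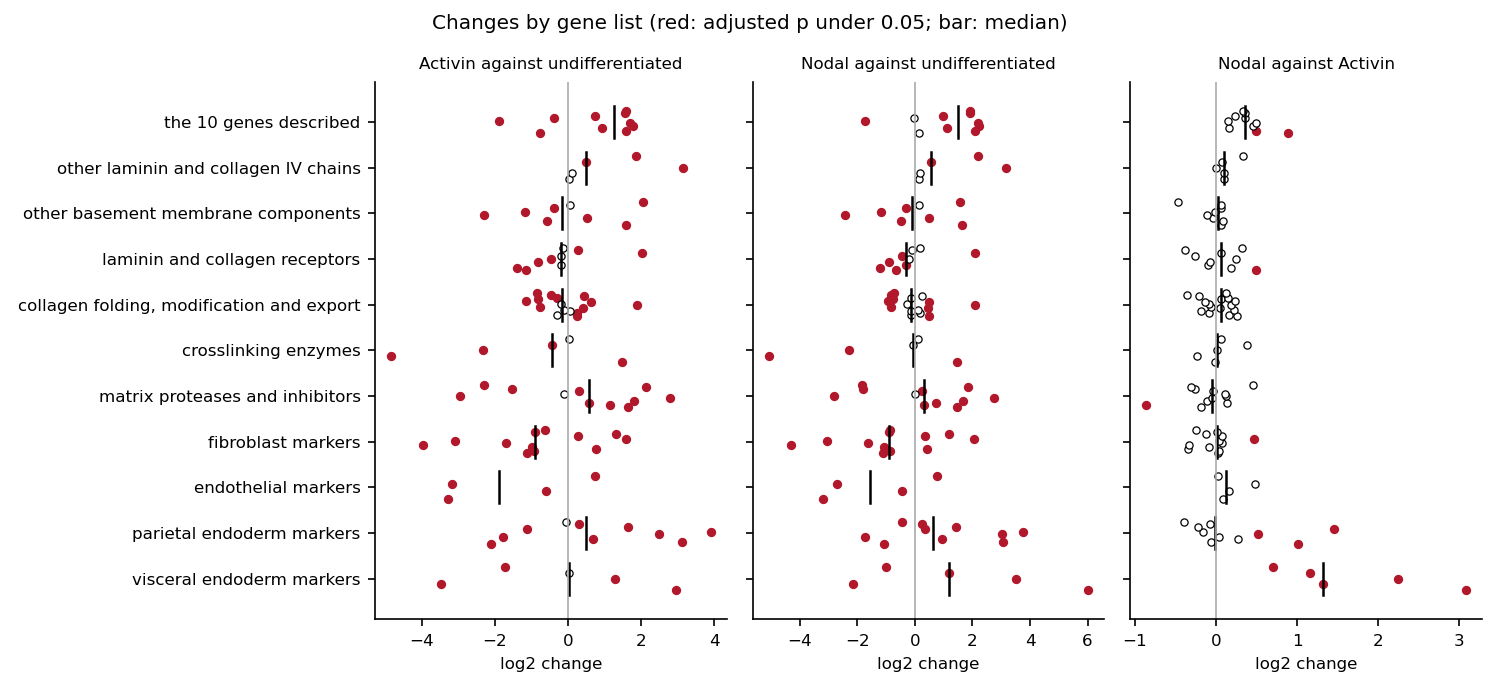
Log2 change (x axis) of each tested gene of the basement membrane set and of 10 other lists, with 1 panel for each of the 3 comparisons and its own scale; points are genes, red where they passed the test, and bars are list medians of fitted changes. The 10 basement membrane genes have medians of 1.26 with Activin and 1.51 with Nodal, the folding and export genes centre near 0 at -0.15 and -0.14, and all 5 visceral endoderm markers lie to the right in the Nodal against Activin panel.

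Because basement membrane is made by several cell types, markers of other cells were set beside these changes. Of 17 fibroblast markers on the array, 9 were detected on no Activin array, 11 on no Nodal array and 6 on no undifferentiated array. Of the 12 tested, 4 rose and 8 fell in each treated group. Of all genes, 36.5% rose and 37.2% fell with Activin, and 36.8% and 37.4% with Nodal. The median changes of the 12 were -0.91 and -0.89 (-0.53 and -0.52 with undetected genes at their bound). Their summed normalized signal ran from 1695 to 1909 on treated arrays and was 1858 and 1882 on undifferentiated arrays. Without Col5a1, which contributed most to that sum's spread, it was 706.8 to 846.9 on treated arrays against 1221 and 1223. Thy1 fell by 3.96 with Activin (adjusted p = 4.52e-09) and was detected on no Nodal array, at least 14.5-fold lower (adjusted p = 2.73e-09). Mgp was detected on no treated array. Dcn fell at -1.71 and -1.64 (adjusted p = 2.69e-07 and 3.58e-07, and -0.80 and -0.66 on another probe). Pdgfra, also known from primitive endoderm, rose by 1.60 and 2.07 (adjusted p = 1.77e-07 and 2.88e-08). Fibroblasts express many of the genes described here, and the part of the feeder cells in the levels of undifferentiated cells, Nid1 included, was not tested.

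Of 8 endothelial markers 4 were tested, and Cdh5, Kdr, Tie1 and Erg were detected on no array of any group. In each treated group 3 fell and 1 rose. Of all genes, 36.5% rose and 37.2% fell with Activin, and 36.8% and 37.4% with Nodal. The median changes of the 4 markers were -1.89 and -1.57 (-1.68 and -1.57 with Pecam1 at its bound). Their summed normalized signals were 164.6 to 205.5 on treated arrays against 617 and 642.4 on undifferentiated arrays. Pecam1 was undetected on treated arrays, at least 6.74-fold lower with Activin and 6.83-fold lower with Nodal (adjusted p = 1.47e-09 and 1.70e-09), with changes of -1.98 and -2.01 on another probe. Vwf was the marker that rose, by 0.74 with Activin and 0.76 with Nodal (adjusted p = 0.0002 and 0.000163). Which cells carried Pecam1 in the undifferentiated group was not tested.

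Parietal endoderm, the main maker of basement membrane in the early mouse embryo, was checked with 11 markers, of which 10 were tested. With Activin 6 rose and 3 fell, where 36.5% of all genes rose and 37.2% fell. With Nodal 7 rose and 3 fell, where 36.8% of all genes rose and 37.4% fell. The median changes of the 10 were 0.50 and 0.65 (0.49 and 0.64 with undetected genes at their bound). Krt19 rose by 3.91 and 3.76 (adjusted p = 2.91e-09 and 3.72e-09) and Gata6 by 3.11 and 3.05 (adjusted p = 7.19e-09 and 8.04e-09). Pth1r, the parathyroid hormone receptor, was not detected in the undifferentiated group and was at least 4.27-fold and 6.12-fold higher (adjusted p = 6.60e-09 and 1.99e-09). Sox7, an early extraembryonic endoderm regulator, fell at -2.09 and -1.08 (adjusted p = 2.37e-06 and 0.000235), and Thbd was detected on no treated array. The list thus held markers moving both ways. Its summed normalized signal was 7068 to 8050 on treated arrays against 3874 and 3975 on undifferentiated arrays, and without Gata6 it was 3184 to 4325 against 3507 and 3449, so that the groups overlapped.

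Visceral endoderm markers, and some markers of parietal endoderm and of pluripotency, were also higher with Nodal than with Activin, as Lama1 and Lamb1 were. All 5 visceral endoderm markers tested were higher, where 1.52% of all genes were, with a median of 1.32: Ttr by 3.08 (SE 0.217, adjusted p = 0.000218), Apoa1 by 2.24 (SE 0.106, adjusted p = 4.56e-05), Amn by 1.32 (SE 0.0826, adjusted p = 0.000132), Hnf4a by 1.16 (SE 0.104, adjusted p = 0.001) and Rhox5 by 0.71 (SE 0.0928, adjusted p = 0.00567). Their summed normalized signal was 899.5 and 778.9 with Activin, 3529 and 3395 with Nodal, and 2027 and 2060 in undifferentiated cells. Without Ttr it was 552.1 and 578.9 with Activin, 1218 and 1235 with Nodal, and 1989 and 2029 in undifferentiated cells. Another 3 of these markers, of 8 on the array, were detected on no array of any group. Against undifferentiated cells 2 of the 5 rose and 2 fell with Activin, where 36.5% of all genes rose and 37.2% fell. With Nodal 3 rose and 2 fell, where 36.8% and 37.4% did. Those that fell were Amn (-3.46 and -2.14) and Rhox5 (-1.71 and -1.01). Of the 10 parietal endoderm markers tested 3 were higher with Nodal, 0 were lower and 7 did not pass, with a median of -0.01. At an unadjusted p under 0.05, 4 were higher and 1 lower by limma, where 8.16% and 7.38% of all genes were. Those that passed were Dab2 by 1.45 (SE 0.101, adjusted p = 0.000218), Sox7 by 1.01 (SE 0.168, adjusted p = 0.0148; another probe 0.53, adjusted p = 0.229) and Pth1r by 0.52 (SE 0.0863, adjusted p = 0.0148; 0.62 and 0.71 on other probes, adjusted p = 0.067 and 0.0117). Of the 9 pluripotency markers tested 3 were higher with Nodal and 0 lower, with a median of 0.40 (6 higher and 1 lower at an unadjusted p under 0.05 by limma). These were Dppa5a by 1.17 (SE 0.131, adjusted p = 0.00275), Pou5f1 by 0.62 (SE 0.129, adjusted p = 0.0397; another probe 0.43, adjusted p = 0.177) and Esrrb by 0.40 (SE 0.0869, adjusted p = 0.0472). The summed normalized signal of the pluripotency markers was 3355 and 3663 with Activin, 4915 and 4987 with Nodal, and 59197 and 59753 in undifferentiated cells. Without Dppa5a it was 2257 and 2173 with Activin and 2062 and 2075 with Nodal. Of the 10 definitive endoderm markers tested, 0 were higher with Nodal, 1 was lower and 9 did not pass, with a median of -0.13. Among all genes, 1.52% were higher and 1.36% lower. Hnf4a, Dab2 and Dppa5a were named after their values were seen. The part of visceral endoderm, parietal endoderm or undifferentiated cells in the difference of Lama1 and Lamb1 between the ligands was not tested.

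The genes whose pattern lay closest to the chains were found by the Euclidean distance between centred log2 levels over the 6 arrays, among 10212 genes outside the set. For the mean of the 3 laminin chains they were Lgals9 (distance 0.176), Fam189a1 (0.181), Vamp5 (0.218), Ctsl (0.222) and Apcdd1 (0.224). Ctsl, which encodes the lysosomal protease cathepsin L, stood 0.47 above undifferentiated cells with Activin and 1.11 with Nodal. For the mean of the collagen IV chains they were Actc1 (0.264), Fhdc1 (0.268), Dhrsx (0.274), Ap1m2 (0.279) and Ffar4 (0.299), with fitted changes of 1.61 to 1.81 with Activin and 2.05 to 2.23 with Nodal. These distances describe 6 arrays in 3 groups, in which most genes differ between treated and undifferentiated cells.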

How the data were processed

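Total RNA was measured as biotin-labelled cRNA on 6 Illumina bead arrays. Per the file headers, the deposited values were an unnormalized intensity per probe and array and its detection p-value; the array model and scanner are not stated in the labels. The submitters' per-group averages, whose background treatment and scaling are unstated (column medians 19.11 to 19.3), served only as an alternative. Arrays were grouped through the column names and sample titles; the descriptions speak of 2, 3 and 4 replicates, and 2 columns per group were present.

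Intensities were background-corrected from the deposited detection p-values (normexp, offset 16), log2-transformed and quantile-normalized with limma 3.58.1 in R 4.3.3. Probes with a detection p under 0.05 on at least 2 arrays were kept (14050), and the brightest probe stood for a gene. Symbols were updated through RefSeq tables. One linear model covered the 3 groups on 6 arrays (lmFit, eBayes), with two-sided tests adjusted by Benjamini-Hochberg over 10222 genes; the script was tested on simulated data. The number of arrays limits the precision. Every member is named; of each of the 12 other lists up to 4 genes with the largest change past the test are named, with exceptions stated, and 1 such gene is not reported here. The members and lists were chosen with earlier results of these data known. Alternatives covered background correction, offset, scaling, filter, probe choice, variance model, minimum fold and leaving out arrays.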

Additional observations from a re-analysis of the deposited data

How the results depend on the processing

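Against undifferentiated cells, all 460 values of the 10 genes (20 changes under 23 alternatives with a test) kept their call, and 18 of the 20 changes passed under every one. With median scaling, 56.4% of the genes past the test were higher with Activin and 56.6% with Nodal, against 49.6% for either with quantile normalization. For Nodal against Activin, 230 of 230 values kept their direction and 195 their call. A minimum fold of 2 left 2744 genes with Activin, among them 5 of the members as higher and 1 as lower. It left 2822 genes with Nodal, among them 6 members as higher and 1 as lower, and 25 genes and 0 members between the ligands. Between the ligands, 294 genes passed and 2 members were higher; these counts became 472 and 6 with no background correction, 468 and 6 with an offset of 50, 442 and 6 with a variance trend and robust fit, 116 and 0 with no filter on dim probes, 329 and 4 with median scaling, and 365 and 4 with a detection p under 0.01. Leaving out 1 array at a time gave 79 to 266 genes and 0 to 3 members; with the same probes kept the counts were 82 to 242 and 0 to 3, with 84 and 91 genes without Nodal replicate 1 or 2. The fewest genes passed without Activin replicate 2 (79), Nodal replicate 1 (79) and Nodal replicate 2 (85), and an arm left with 1 array was assumed to vary like the others; the fewer arrays alone lower these counts. Arrays with the same replicate number deviated together little (r = 0.102, 0.00404 and 0.0253 for the 3 pairs of groups). With 2 arrays per group, such values cannot settle whether the numbers pair the arrays. With the replicate number as a block 287 genes passed between the ligands and the member counts stayed at 2 higher and 0 lower. For the other alternatives the cause of a changed count was not tested. A dim probe close to background has a compressed change, and undetected genes have only a bound.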
